A study of Homo sapiens with 44 samples.

Results

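Acute-phase and IL-17 target genes were followed through intestinal stromal cells exposed to single cytokines. The 8 genes were SAA1, SAA2, LCN2, LBP, CEBPB, CEBPD, ZC3H12A and A2M, taken by symbol from the 40663 gene symbols of the deposited table. The rule that picks them uses no measured value, but the list was drawn up with earlier results of these data known. All 8 symbols were present in the table.

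The acute-phase response is the change in secreted proteins that follows infection or injury. It is best known from the liver, where IL-6-type cytokines act through gp130 and STAT3 and IL-1-type cytokines act through NF-κB, and C/EBPβ and C/EBPδ bind many of the promoters involved. IL-17A acts on stromal and epithelial cells, where it raises a similar set of genes together with TNF, partly through the same C/EBP factors and partly by making messenger RNAs more stable. Serum amyloid A and lipocalin 2 are among the best known products of these pathways in the inflamed gut, and the RNase Regnase-1, made from ZC3H12A, degrades the messages of many inflammatory genes and limits the response.

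Bulk RNA-seq was made from Ccd-18Co, an established human colon fibroblast line, so every group is a single line grown without epithelial, immune or liver cells. Cells were starved of serum for 72 h and then stimulated for 24 h. The 11 groups of 4 libraries were unstimulated cells, cells given IL-1β at 0.1 ng/ml, and cells given TNF, IL-17A, oncostatin M (OSM), IL-6, IL-22, IFNα, IFNγ, TGF-β1 or IL-13 at 10 ng/ml. The IL-1β dose is that of the labels. The study's own text also gives a lower one, and the conflict was not settled. Either is below the dose of the others, and each comparison with another cytokine sets these doses side by side. Nothing in the labels says that the replicates were separate cultures, so p-values measure only the spread between these libraries. The 10 comparisons with unstimulated cells share the same 4 unstimulated libraries.

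The libraries were shallow, with total counts between 742173 and 2213424 (median 1480883), so that 3 counts correspond to between 1.39 and 3.85 CPM (counts scaled to a library of 1e6 normalized counts). Fibroblast markers (COL1A1, DCN, LUM and 6 others) summed to between 17224 and 52304 CPM in each library. Hepatocyte markers summed to at most 0.825 CPM, with ALB, APOA1 and TTR at 0 in all 44 libraries. Granulocyte markers reached at most 2.56 CPM, with MPO and FCGR3B at 0. The epithelial list reached 26.6 CPM through VIL1, with EPCAM at 3 counts in all.

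Most of the 8 genes were rare or absent. SAA1 and LCN2 had 0 counts in all 44 libraries, and SAA2 had 5 counts spread over 4 libraries. LBP had 40 counts in all, of which 38 came from the 4 OSM libraries. ZC3H12A had 54 counts, of which 42 came from the 12 libraries given IL-1β, TNF or IL-17A. CEBPB and CEBPD were detected in all 44 libraries at low level, with 521 and 728 counts in total. A2M had 778 counts in 38 libraries, and stood highest after IFNγ.

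Only CEBPB, CEBPD and A2M passed the filter on low counts and entered the fit across 9513 genes (the quasi-likelihood test of edgeR, with p-values adjusted after Benjamini-Hochberg across those genes and calls made at an adjusted p under 0.05). The filter asked for about 6.75 CPM in 4 libraries, which A2M reached in 13 libraries (4 of them given IFNγ and 4 given OSM), CEBPB in 26 and CEBPD in 34. For A2M the other 5 lay in other groups, so it would pass without those given IFNγ or OSM. Of these 3 genes, 1 was called with IFNγ, where 5.52% of all genes tested were called higher and 5.13% lower. With each of the other 9 cytokines 0 of 3 were called. The shares of all genes called higher and lower were 3.46% and 3.92% with IL-1β, 5.37% and 6.09% with TNF, and 0.599% and 0.925% with IL-17A. They were 1.42% and 2.54% with OSM, 4.99% and 4.86% with IFNα, 2.61% and 3.08% with TGF-β1, and 1.53% and 2.4% with IL-13. With IL-6 they were 0.0105% and 0%, and with IL-22 both were 0%. Some of the comparisons with 0 calls still had members at an unadjusted edgeR p under 0.05: CEBPB with IL-1β, CEBPD with TNF and with TGF-β1, and A2M and CEBPD with OSM. Many of all 9513 genes did so too: 1610 with IL-1β, 2236 with TNF, 1799 with TGF-β1 and 1455 with OSM. DESeq2 called A2M with IFNγ and with OSM, and none of the 3 genes with the other 8 cytokines.

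SAA1 and SAA2 encode serum amyloid A proteins, which are carried on lipoproteins and rise steeply in blood during inflammation. SAA1 lies at chr11:18266260-18269977 (GRCh38, plus strand) and SAA2 nearby at chr11:18239223-18248668 on the minus strand. SAA1 had 0 counts in every library, and so did SAA4, SAA3P and the read-through SAA2-SAA4. SAA2 had 1 count in unstimulated replicate 1, 1 in IL-22 replicate 4, 1 in IFNγ replicate 1 and 2 in IFNγ replicate 2. The 12 libraries given IL-1β, TNF or IL-17A and the 4 given OSM had none. Transcripts of the SAA1 and SAA2 genes share 368 of their 31-base words, which is 44.7% of those of SAA1 and 25.7% of those of SAA2, so counts of the 2 genes could be exchanged. Their sum stayed at 5 counts over all libraries.

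LCN2 encodes lipocalin 2, which binds bacterial siderophores and so withholds iron. It lies at chr9:128149071-128153453 (GRCh38, plus strand). LCN2 had 0 counts in all 44 libraries. Over the pooled libraries 3 counts would be 0.0467 CPM, which is the limit that a count of 0 allows for a level common to all groups. The limit for a single group is higher. In 1 library given IL-1β, TNF or IL-17A, 3 counts are between 1.39 and 2.58 CPM. Expression below these limits was not detectable at this depth, and the limits cover counting error only, since reads that carry no molecular identifier can be copies of the same molecule. The stretch before the RefSeq start of LCN2 is shown because this gene is a textbook target of NF-κB and C/EBP factors and yet stood at 0 after IL-1β, TNF and IL-17A. The other stretch belongs to ZC3H12A, which was detected mostly after the same 3 cytokines. Both are printed 5′ to 3′ from RefSeq (GRCh38.p14), outside annotated exons, with matches to an NF-κB-type pattern (GGG and CC with any 5 bases between them) or a C/EBP-type pattern (TTNNGNAA) on either strand in capitals.
LCN2, chr9:128149265-128149440, plus strand: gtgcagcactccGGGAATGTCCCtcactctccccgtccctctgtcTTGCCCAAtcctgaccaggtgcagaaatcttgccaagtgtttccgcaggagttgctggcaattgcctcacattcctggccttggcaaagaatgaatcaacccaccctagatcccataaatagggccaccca
ZC3H12A, chr1:37474330-37474579, plus strand: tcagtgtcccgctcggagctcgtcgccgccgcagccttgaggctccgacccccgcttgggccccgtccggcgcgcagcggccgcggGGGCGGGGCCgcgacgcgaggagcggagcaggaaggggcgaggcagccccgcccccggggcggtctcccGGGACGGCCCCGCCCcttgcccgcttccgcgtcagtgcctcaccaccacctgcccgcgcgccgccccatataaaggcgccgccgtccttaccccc

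The LCN2 window held 2 overlapping NF-κB-type matches starting at -176 and -175, and 1 C/EBP-type match starting at -143, counted in bases from the RefSeq start. The ZC3H12A window held 4 NF-κB-type matches, 3 of them overlapping, and no C/EBP-type match. CEBPB had 2 RefSeq windows with 11 NF-κB-type matches between them. These patterns are loose: of 35116 RefSeq promoter windows, 58.7% held the NF-κB-type pattern and 36.8% the C/EBP-type pattern. A STAT-type pattern (TTCNNNGAA) stood in 7.66% of all windows and in none of those of LCN2, ZC3H12A and CEBPB. A match describes letters and is not a bound site. No window was listed for SAA1, SAA2, LBP, CEBPD or A2M.

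LBP encodes lipopolysaccharide binding protein, a secreted protein that passes bacterial lipopolysaccharide to CD14 and is classically made by hepatocytes. It lies at chr20:38346482-38377013 (GRCh38, plus strand). The 4 OSM libraries had 9, 13, 9 and 7 counts of LBP, and 1 count each was found in unstimulated replicate 3 and IL-1β replicate 1. The other 38 libraries had 0. All 4 OSM libraries thus stood above each of the other 40, and the level was 6.24 ± 1.00 CPM with OSM against 0.176 ± 0.352 CPM in unstimulated cells (mean ± SD, n = 4 each).

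The pooled LBP counts of 38 and 1 give a ratio of 39.6 (95% counting interval 6.70 to 1606) for OSM over unstimulated cells. An exact two-sided permutation test of the CPM values gave p = 0.0286, which is the smallest that 4 against 4 libraries allow. It was unadjusted and was 1 of 42 such tests, made for the 3 genes with some counts that the filter removed (LBP, ZC3H12A and SAA2) over 14 comparisons. OSM and IL-6 share the gp130 receptor chain, and LBP had 0 counts in all 4 IL-6 libraries. With IL-6 set to a floor of 3 counts over the pooled group, LBP was 13.7-fold higher with OSM than with IL-6 (exact permutation p = 0.0286). On the counts as they were, the lower 95% counting limit of that ratio was 10.6. It was also higher with OSM than with IL-1β, where the pooled counts were 38 and 1 (exact permutation p = 0.0286). When every gene with any count entered the edgeR fit (23518 genes), the Benjamini-Hochberg adjusted p of LBP was 0.130 for OSM against unstimulated cells, 0.0293 for OSM against IL-6 and 0.0611 for IL-1β against OSM.

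A2M encodes alpha-2-macroglobulin, a secreted trap for proteases of many classes and a classical acute-phase protein of the rat liver. It lies at chr12:9067664-9116229 (GRCh38, minus strand), and the antisense gene A2M-AS1 that overlaps it had 6 counts in all libraries together. In unstimulated cells the 4 libraries had A2M levels of 2.94, 0.729, 4.22 and 9.56 CPM, on 6, 1, 6 and 14 counts. With IFNγ they were 85.1, 52.3, 114 and 112 CPM, on 113, 63, 131 and 157 counts. All 4 IFNγ libraries stood above each of the other 40 libraries.

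A2M rose with IFNγ from 4.36 ± 3.75 to 90.7 ± 28.7 CPM (mean ± SD, n = 4 each), a fold change of 20.5 in the fit. The log2 fold change was 4.36 (SE 0.74) with an adjusted p of 2.97e-05 (edgeR, Benjamini-Hochberg). Leaving out each library of the 2 groups in turn moved the log2 fold change between 4.03 and 5.05, and the call was kept each time. IFNα, the type I interferon, gave 3.05 ± 2.66 CPM of A2M, with libraries at 1.65, 0, 5.56 and 4.98 CPM that overlapped the unstimulated range. Its log2 fold change was -0.53 (SE 0.81, adjusted p 0.788 by edgeR).

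**Figure D1:**
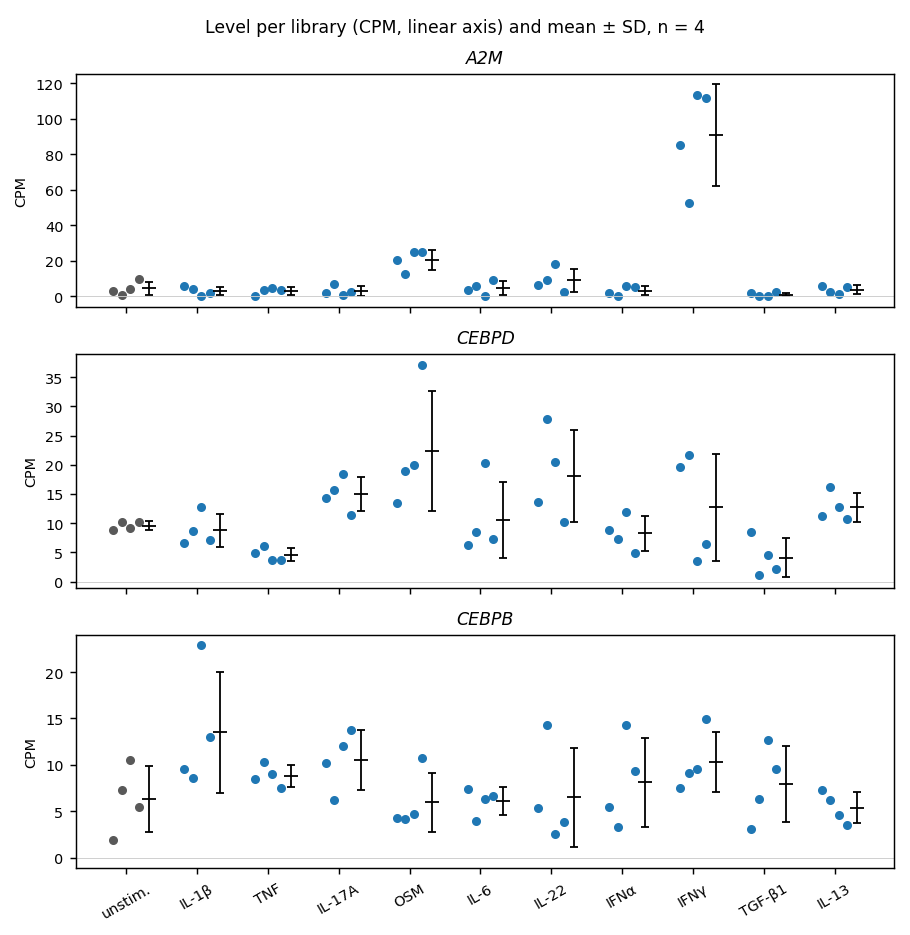
Levels of A2M, CEBPD and CEBPB in CPM (linear axes from 0) in each of 4 libraries for the 11 groups, with the mean and SD (bars) beside the points and unstimulated cells in grey. The 4 IFNγ libraries of A2M sit between 52.3 and 114 CPM and the 4 OSM libraries between 12.4 and 24.7 CPM, whereas the CEBPB ranges of neighbouring groups overlap.

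OSM stood next in the order of A2M levels. The OSM libraries had 20.1, 12.4, 24.7 and 24.7 CPM of A2M on 33, 21, 37 and 30 counts, all above the highest unstimulated library and below the lowest IFNγ library. The mean was 20.5 ± 5.79 CPM (SD, n = 4), 4.64-fold over unstimulated cells, with a log2 fold change of 2.21 (SE 0.72). This did not pass the edgeR test across all genes (adjusted p = 0.0714). The call depended on the method, since DESeq2 gave an adjusted p of 0.0175 and an edgeR fit of the 8 libraries alone gave 0.0268.

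The remaining A2M means lay between 0.940 CPM with TGF-β1 and 8.91 CPM with IL-22, and the ranges of all neighbours in that order overlapped. With TGF-β1 the 4 libraries were at 1.56, 0, 0 and 2.20 CPM, and the log2 fold change of -1.97 (SE 0.99) had an adjusted p of 0.269 by edgeR. IL-22 gave 6.08, 9.05, 17.9 and 2.56 CPM, which overlapped both the unstimulated and the OSM ranges (log2 fold change 0.94, SE 0.76, adjusted p 0.731 by edgeR). The overlap with OSM rested on IL-22 replicate 3 alone, with 14 counts in the library of the lowest total count (742173). With IL-1β, TNF and IL-17A the A2M means were 2.87, 2.92 and 2.99 CPM. Their log2 fold changes were -0.55, -0.55 and -0.57, with SEs of 0.80, 0.82 and 0.81, so neither a rise nor a fall of A2M could be told from the spread at these counts.

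A direct comparison of IL-1β with OSM, the cytokines of the 2 acute-phase classes, found A2M lower with IL-1β by 2.76 on the log2 scale (a log2 fold change of -2.76, SE 0.74, adjusted p 0.00899 by edgeR), a 6.77-fold difference. The IL-1β libraries had 5.55, 3.98, 0 and 1.95 CPM, all below the lowest OSM library. Over all genes tested in this comparison, 5.91% were called higher and 4.48% lower with IL-1β. Between OSM and IL-6, with 3.43, 5.89, 0 and 9.06 CPM of A2M in the IL-6 libraries, the ranges did not overlap either. That log2 fold change of 2.13 (SE 0.71) had an adjusted p of 0.114 by edgeR and of 0.0347 by DESeq2, and 0 of the 3 genes were called by edgeR, with CEBPD and A2M at an unadjusted p under 0.05. In that comparison 0.988% of all genes were called higher and 1.68% lower, and 1170 of all 9513 had an unadjusted edgeR p under 0.05.

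**Figure D2:**
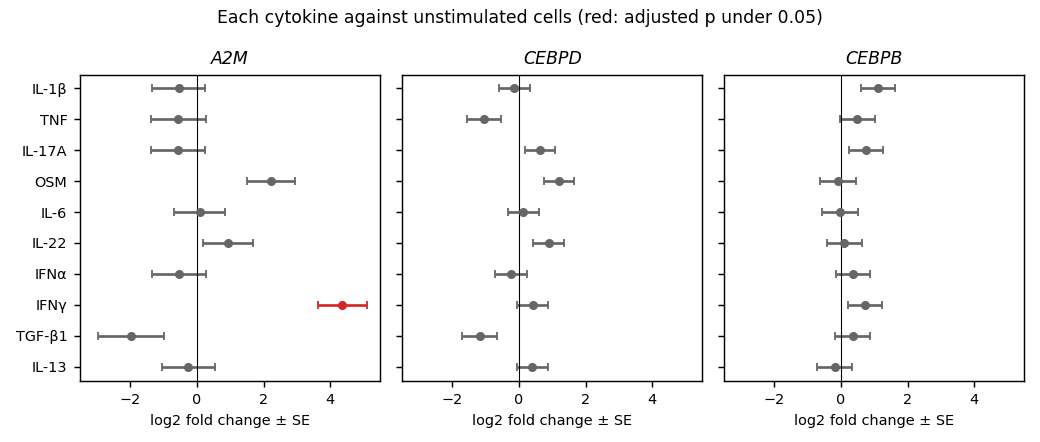
Log2 fold changes of A2M, CEBPD and CEBPB for each cytokine against unstimulated cells (x axis, points with SE bars, fit of all 44 libraries), with genes called at an adjusted p under 0.05 in red. The single red point is A2M with IFNγ at 4.36, and A2M with OSM follows at 2.21 in grey.

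CEBPB and CEBPD encode the leucine zipper factors C/EBPβ and C/EBPδ, which bind as homodimers or heterodimers and act on the promoters of many acute-phase and IL-17 target genes. CEBPD lies at chr8:47736913-47738164 on the minus strand and CEBPB at chr20:50190830-50192668 on the plus strand (GRCh38). The unstimulated libraries had 8.81, 10.2, 9.15 and 10.2 CPM of CEBPD, on 18, 14, 13 and 15 counts. This was the narrowest spread of any of the 11 groups for this gene.

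With OSM the CEBPD libraries stood at 13.4, 19.0, 20.0 and 37.1 CPM, all above the unstimulated range. The mean of 22.4 ± 10.2 CPM against 9.60 ± 0.73 CPM (SD, n = 4 each) corresponded to a log2 fold change of 1.21 (SE 0.46) that did not pass the edgeR test (adjusted p = 0.157). OSM replicate 4 was the highest of all 44 libraries. IL-22 came second with 13.7, 27.9, 20.5 and 10.2 CPM, whose lowest library fell inside the unstimulated range, and a log2 fold change of 0.90 (SE 0.47, adjusted p 0.489 by edgeR). IL-17A followed with 14.4, 15.6, 18.4 and 11.5 CPM, all above the unstimulated range, and a log2 fold change of 0.63 (SE 0.46, adjusted p 0.645 by edgeR). IL-13 also stood above that range, between 10.7 and 16.2 CPM (log2 fold change 0.40, SE 0.47, adjusted p 0.770 by edgeR). The narrow unstimulated range makes it easier for a group to stand apart from it. The share of all genes with ranges apart was not computed.

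The lowest CEBPD levels were found with TGF-β1 and TNF. TNF gave 4.94, 6.03, 3.75 and 3.75 CPM and TGF-β1 gave 8.58, 1.06, 4.54 and 2.20 CPM, and both sets lay below all unstimulated libraries. The log2 fold changes were -1.05 (SE 0.50) with TNF and -1.18 (SE 0.52) with TGF-β1, with edgeR adjusted p-values of 0.190 and 0.192. IFNγ split its libraries, with 19.6 and 21.6 CPM in replicates 1 and 2 and 3.47 and 6.41 CPM in replicates 3 and 4. IL-1β gave 6.56, 8.62, 12.7 and 7.13 CPM of CEBPD, which overlapped the unstimulated range (log2 fold change -0.13, SE 0.47, adjusted p 0.938 by edgeR).

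Between the 2 inflammatory cytokines IL-1β and TNF, the CEBPD ranges lay only narrowly apart. The lowest IL-1β library had 6.56 CPM on 13 counts and the highest TNF library 6.03 CPM on 7 counts. The share of all genes with ranges apart was not computed here either, so the gap is a description only. The log2 fold change of 0.92 (SE 0.50) had an adjusted p of 0.486 by edgeR, and 0 of the 3 genes were called in IL-1β against TNF or at an unadjusted p under 0.05, with 0.694% of all genes called higher and 0.452% lower. Nor were any called in IL-1β against IL-17A, where none had an unadjusted p under 0.05 and 1.86% of all genes were called higher and 1.53% lower. Of all 9513 genes, 1091 had an unadjusted edgeR p under 0.05 in IL-1β against TNF and 1258 in IL-1β against IL-17A. DESeq2 called none of the 3 in either comparison. CEBPD was lower with IL-1β than with OSM in all 4 libraries, at a log2 fold change of -1.34 (SE 0.46) and an adjusted p of 0.0544 by edgeR, and of 0.0264 by DESeq2.

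CEBPB was highest with IL-1β, with libraries at 9.59, 8.62, 22.9 and 13.0 CPM on 19, 13, 36 and 20 counts. The unstimulated libraries had 1.96, 7.29, 10.6 and 5.46 CPM on 4, 10, 15 and 8 counts, so that the ranges overlapped. The means were 13.5 ± 6.51 and 6.32 ± 3.59 CPM (SD, n = 4 each), with a log2 fold change of 1.11 (SE 0.51, adjusted p = 0.235 by edgeR).

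IL-17A gave 10.2, 6.24, 12.0 and 13.8 CPM of CEBPB (log2 fold change 0.76, SE 0.51, adjusted p 0.594 by edgeR) and TNF 8.47, 10.3, 9.00 and 7.50 CPM (0.50, SE 0.52, adjusted p 0.638). The means of the 11 groups ran from 13.5 CPM with IL-1β through 10.6 with IL-17A and 10.3 with IFNγ down to 5.41 with IL-13, and every pair of neighbours overlapped in its libraries. OSM and IL-6 left CEBPB at 5.95 ± 3.19 and 6.08 ± 1.51 CPM (SD, n = 4), with log2 fold changes of -0.09 (SE 0.53) and -0.03 (SE 0.53). The opposite-strand gene CEBPB-AS1 overlaps CEBPB, and its group means ran from 0.645 CPM in unstimulated cells to 3.45 CPM with IL-6. It stood at 3.33 CPM with IL-13, 2.86 with IL-1β, 2.45 with OSM and 2.14 with IL-17A. The remaining groups lay between 0.759 CPM with TGF-β1 and 1.95 CPM with IFNα. Whether strand was used in counting is not given in the sources used here, so reads of the 2 genes may have been mixed, and its part in the CEBPB values was not tested.

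The order of group means differed between the 2 factors, but in both orders every pair of neighbours overlapped in its libraries. Neither gene was called with any cytokine against unstimulated cells, so the orders are a description only. OSM, IL-22 and IL-17A gave the 3 highest CEBPD means, and IL-1β, IL-17A and IFNγ gave the 3 highest CEBPB means. IL-17A was in both sets, although neither gene was called there. The 3 tested genes whose 11 group means on the log2 CPM scale were most like those of CEBPB were LRIG1, ID2 and IER3-AS1 (Pearson r 0.93, 0.93 and 0.91), all highest with IL-1β. For CEBPD they were ZNF700, NPIPA9 and JRK (r 0.93, 0.93 and 0.88) and for A2M they were ME2, KARS1 and HSBP1L1 (r 0.95, 0.93 and 0.91, all highest with IFNγ). These correlations are over 11 group means that share libraries and depth. They are also the 3 highest of all genes tested for each member, a selection that favours a high r by itself. They are a description only.

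ZC3H12A encodes Regnase-1, and lies at chr1:37474580-37484377 (GRCh38, plus strand). All 4 unstimulated libraries had 0 counts. The IL-1β libraries had 6, 5, 0 and 5 counts, the TNF libraries 5, 5, 3 and 0, and the IL-17A libraries 3, 1, 7 and 2. A count was thus present in 10 of 12 libraries given IL-1β, TNF or IL-17A, with 42 counts, and in 7 of the other 32 libraries, with 12 counts.

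The IL-17A libraries were the only ones of the 3 groups that all stood above the unstimulated libraries, at a mean of 2.23 ± 2.27 CPM (SD, n = 4). That was 4.25-fold over a floor of 3 pooled unstimulated counts, with a lower 95% counting limit of 2.99 for the ratio. An exact two-sided permutation test gave an unadjusted p of 0.0286, the smallest possible, among the 42 tests. Much of that mean came from replicate 3 with 5.61 CPM, without which the difference fell from 2.23 to 1.11 CPM. IL-1β gave 2.40 ± 1.60 CPM, 5.09-fold over the floor (lower 95% counting limit 3.68). TNF gave 2.52 ± 1.88 CPM, 4.72-fold over it (lower limit 3.32). Both had an exact permutation p of 0.143 because 1 library had no count. When all 23518 genes with any count were fitted, the edgeR Benjamini-Hochberg adjusted p-values of ZC3H12A were 0.0940 with IL-1β, 0.0683 with TNF and 0.214 with IL-17A.

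ZC3H12A had 3 counts in the OSM group, 3 with IFNα, 1 with IFNγ and 5 with TGF-β1, and 0 in the IL-6, IL-22 and IL-13 groups. IL-1β and TNF did not separate (pooled ratio 1.08, 95% counting interval 0.485 to 2.43), nor did IL-1β and IL-17A (1.20, interval 0.540 to 2.71). The pooled counts of 16 with IL-1β and 3 with OSM gave a ratio of 4.88 (interval 1.40 to 26.1), with an exact permutation p over libraries of 0.143.

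**Figure D3:**
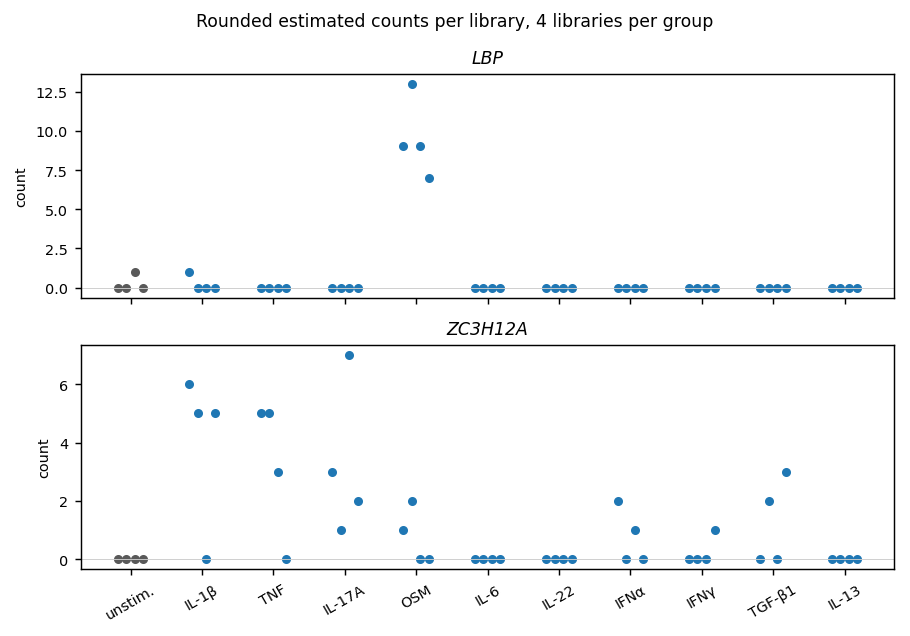
Rounded estimated counts of LBP and ZC3H12A (y axes, from 0) in each of the 4 libraries of the 11 groups, with unstimulated cells in grey. LBP has 7 to 13 counts in the OSM libraries and at most 1 elsewhere, and ZC3H12A has 42 of its 54 counts in the IL-1β, TNF and IL-17A libraries.

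The other genes of these pathways show which parts of the response were measurable in the same libraries. Of 26 further IL-17 target genes, 18 were tested, and 17 rose with IL-1β, 17 with TNF and 6 with IL-17A, with median log2 fold changes of 5.81, 4.33 and 1.67 beside -0.01, -0.02 and -0.02 over all genes tested. CXCL2, a neutrophil chemokine, went from 6.44 ± 12.6 to 989 ± 217 CPM with IL-1β (log2 fold change 7.30, SE 0.70, n = 4 each). With IL-17A the related chemokines CXCL1 and CXCL6 and the NF-κB partner NFKBIZ rose by log2 fold changes of 4.26, 3.59 and 2.81 (edgeR adjusted p 2.63e-10, 8.62e-13 and 4.15e-06). Within the same list S100A7, DEFB4A and PDZK1IP1 were, like LCN2 and SAA1, at 0 in every library, and S100A8, S100A9 and MUC5B had 1 count each. With IL-13, 8 of the 18 fell and none rose, and without unstimulated replicate 4 the count was 4. That library had 811 counts of CXCL8 beside 47, 27 and 121 in the other unstimulated libraries, and 156 of CXCL3 beside 7, 4 and 28. With IFNα 6 of the 18 rose, with IFNγ 2 and with TGF-β1 3. Without unstimulated replicate 4 the counts that rose were 18 with IL-1β, 18 with TNF, 8 with IL-17A, 8 with IFNα, 9 with IFNγ and 6 with TGF-β1. Without IFNγ replicate 2 the IFNγ count was 4. Replicate 4 was also the unstimulated library with the most A2M.

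Of 20 other acute-phase genes, 7 (CRP, SAA4, ORM1, ORM2, FGA, FGB and ITIH3) were at 0 in all libraries, 13 had at most 20 counts in all, and 4 were tested. AGT, which encodes angiotensinogen, rose with OSM from 0.635 ± 0.971 to 31.0 ± 6.98 CPM (log2 fold change 5.43, SE 1.13, adjusted p 0.00162 by edgeR). LBP had its counts in the same 4 libraries. CFB, complement factor B, passed the test with IFNα (log2 fold change 3.03, adjusted p 0.0453), a call lost in 6 of 8 fits that left out 1 library. None of the 4 was called with IL-1β or TNF. Even so, their median log2 fold changes were highest there, at 2.23 and 2.03, beside -0.01 and -0.02 over all genes. The median was 1.79 with IFNα, 0.78 with OSM and -2.10 with TGF-β1. Without unstimulated replicate 1, 1 gene of this list was called higher with IL-1β and 1 with TNF. In the list of gp130 and STAT3 feedback genes, with 4 of 7 tested, SOCS3 rose with OSM from 1.11 ± 0.88 to 33.6 ± 6.26 CPM (log2 fold change 4.81, SE 0.86, adjusted p 0.000220), and the call was kept when each library was left out. JUNB of this list rose with TNF (log2 fold change 4.10, SE 1.10, adjusted p 0.00898 by edgeR), also kept each time. Calls on JUNB with IL-17A (4.29) and STAT3 with IFNγ (0.92) were each lost in 6 of 8 such fits.

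Among 10 C/EBP family members and partners, CEBPA and CEBPE were at 0 and 7 were tested. DDIT3, the stress-induced partner CHOP, fell with IL-1β, TNF and IL-17A (log2 fold changes -1.51, -0.81 and -1.08) and rose with IL-13 (0.82). CEBPG fell with IL-1β and TNF (-1.31 and -1.37). In the Regnase and Roquin list, with 9 of 12 tested, the Regnase relative ZC3H12C rose with IL-1β from 6.49 ± 2.15 to 35.2 ± 11.6 CPM (log2 fold change 2.42, SE 0.57, adjusted p 0.00344 by edgeR). ZFP36L2, which binds AU-rich messages, fell with IL-1β, TNF and TGF-β1 (-1.17, -1.32 and -1.61). These calls on DDIT3, CEBPG, ZC3H12C and ZFP36L2 were kept when each library was left out.

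**Figure D4:**
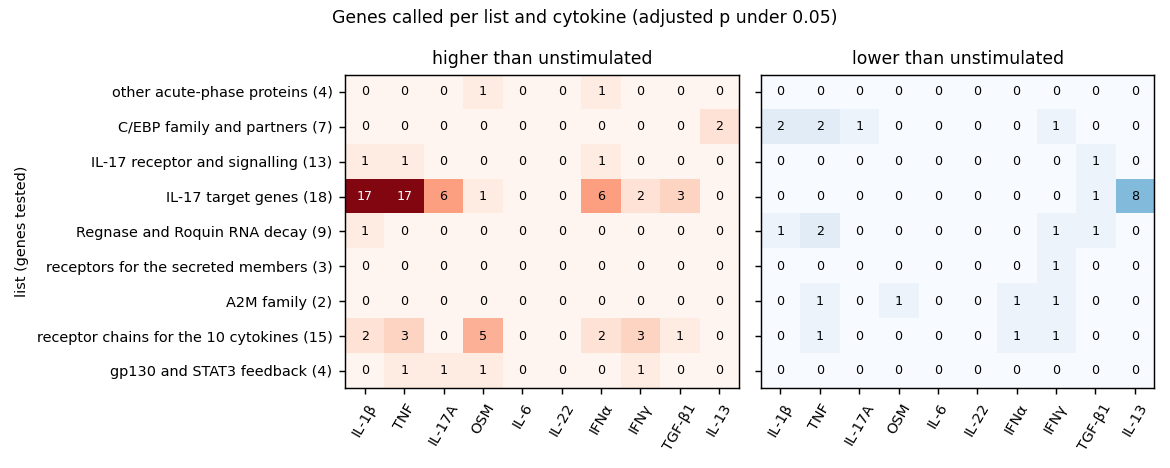
Number of genes called higher (left) and lower (right) than in unstimulated cells at an adjusted p under 0.05, for 9 lists (rows, with the genes tested in brackets) and 10 cytokines (columns). The IL-17 target genes have 17 of 18 called higher with IL-1β and with TNF and 6 with IL-17A, and the other acute-phase proteins have 1 called higher with OSM and 1 with IFNα.

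For the receptor chains of the 10 cytokines, CPM is not scaled for transcript length, so the levels below describe each gene on its own. In unstimulated cells the shared chain gp130 (IL6ST) stood at 713 ± 248 CPM, OSMR at 31.3 ± 9.00 CPM and IL6R at 2.21 ± 1.64 CPM (SD, n = 4 each). IL22RA1 had 1 count in the 44 libraries. Of 18 receptor genes 15 were tested, and 5 were called higher with OSM, where 1.42% of all genes tested were called higher. Among the 5 were IL13RA1 and IL1R1 (log2 fold changes 1.68 and 1.66, kept when each library was left out). The count of 5 went down to 2 without unstimulated replicate 4 and to 3 without unstimulated replicate 3, OSM replicate 2 or OSM replicate 3. Such calls were not particular to OSM: 3 were higher and 1 lower with TNF, and likewise with IFNγ. With IFNα 2 were higher and 1 lower, with IL-1β 2 were higher and with TGF-β1 1 was higher. The TNF count of 3 higher stayed at 3 when each unstimulated library was left out. The IL-17 receptor chain IL17RA was at 1.76 ± 2.17 CPM in unstimulated cells and was not tested. Of the 13 tested genes of IL-17 signalling, the adaptor TRAF3 rose with TNF (2.69).

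Receptors for the secreted proteins were mostly rare. CD14, to which LBP passes lipopolysaccharide, and TLR4, which senses it, had 12 and 5 counts in all libraries, and FPR2, a receptor for serum amyloid A, had 1. Of this list 3 of 10 genes were tested, and LY96, the partner of TLR4, was called lower with IFNγ (log2 fold change -1.07, adjusted p 0.0252 by edgeR), a call lost without unstimulated replicate 2 or IFNγ replicate 3. In the A2M family 2 of 7 genes were tested, and CD109, a membrane-bound relative of A2M, fell with IFNα from 272 ± 105 to 112 ± 33.7 CPM (log2 fold change -1.29, SE 0.32). Its calls with TNF, OSM and IFNγ (-0.99, -1.12 and -1.05) were each lost in 6 of 8 fits that left out 1 library.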

How the data were processed

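RNA-seq libraries of Ccd-18Co cells in 11 groups of 4 were grouped from the sample labels. Per the submitters' processing notes and the study's methods, the authors used FastQC 0.11.9 and MultiQC 1.14 for read quality and kallisto 0.48.0 for quantification. They deposited estimated counts per gene symbol, not scaled for depth. The notes name hg38, and the transcriptome release and strand setting are not given in the sources used here. Gene positions are from GENCODE on GRCh38.

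The estimated counts were rounded (5.14% were not whole, with a tolerance of 0.01). In R 4.3.3, edgeR 4.0.16 kept 9513 of 40663 symbols (filterByExpr), scaled them by TMM and fitted all 44 libraries with 1 coefficient per group by quasi-likelihood. Adjustment was by Benjamini-Hochberg over all genes tested, and genes were called at an adjusted p under 0.05. CPM are counts divided by the normalized library size and multiplied by 1e6. For members that the filter removed, CPM were compared by exact permutation over 70 divisions of 8 libraries, and pooled counts by exact binomial intervals, which cover counting error only. Alternatives were DESeq2 1.42.0, other filters, size factors, a fold threshold, a replicate block, the 8 compared libraries alone, and leaving out each replicate. The edgeR step was tested on simulated data.

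The members and lists were chosen with earlier results of these data known. Named list genes are up to 3 called genes of largest change per list and cytokine, and genes named at 0 or at few counts, IL6ST, IL6R, IL22RA1 and IL17RA were added after their values were seen. Chi-square per degree of freedom between replicates was at least 3.21 in all 66 pairs, beyond sampling noise, which does not show that they came from separate cultures. Each library was counted as 1 replicate.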

Additional observations from a re-analysis of the deposited data

Results flagged for a closer look

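In 9 of the 46 groups of 4 libraries in which a member had any spread, 1 library stood apart from the other 3 by Dixon's ratio at the 95% level. Chance would give about 2.3 for continuous normal values. These low counts are not such values, so the 9 cannot be read as an excess. Of the 9 flags, 5 rest on a single count: SAA2 in unstimulated replicate 1 (0.490 CPM) and IL-22 replicate 4 (0.640 CPM), LBP in unstimulated replicate 3 (0.704 CPM) and IL-1β replicate 1 (0.505 CPM), and ZC3H12A in IFNγ replicate 4 (0.712 CPM), each against 0 in the other libraries of the group. The ratio flags every group with a count in only 1 library.

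CEBPB stood at 10.7 CPM in OSM replicate 4, against 4.15 to 4.67 CPM in the other OSM libraries. CEBPD stood at 20.3 CPM in IL-6 replicate 3, against 6.28 to 8.50 CPM. ZC3H12A had 0 CPM in IL-1β replicate 3, against 3.03 to 3.31 CPM, and 5.61 CPM in IL-17A replicate 3, against 0.780 to 1.39 CPM.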

How the results depend on the processing

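No called value of a member changed direction under the alternatives run. Values not called did so in 40 of 574 fits of a log2 fold change, none of them called. CEBPB with IL-6 was 0.043 with the replicate block. A2M in IL-1β against TNF was -0.021 with size factors, -0.032 by DESeq2 and -0.0044 with at least 10 counts in 4 libraries, and in IL-1β against IL-17A it was -0.0075 by DESeq2. The other 35 were leave-one-out fits, with these ranges of log2 fold change. CEBPB ran from -0.50 to 0.30 with OSM, -0.35 to 0.35 with IL-6, -0.61 to 0.49 with IL-22, -0.026 to 0.75 with IFNα, -0.51 to 0.21 with IL-13, -0.040 to 0.50 in IL-1β against IL-17A and -0.48 to 0.081 in OSM against IL-6. CEBPD ran from -0.38 to 0.32 with IL-6. A2M ran from -1.11 to 0.14 with IL-1β, -0.88 to 0.13 with TNF, -1.28 to 0.12 with IL-17A, -0.48 to 0.77 with IL-6, -0.93 to 0.15 with IFNα, -0.60 to 0.43 with IL-13, -0.58 to 0.37 in IL-1β against TNF and -0.55 to 0.74 in IL-1β against IL-17A. The number of members called moved for OSM against unstimulated cells from 0 to 1 (DESeq2, all genes with any count, the 8 libraries alone; 0 to 1 over the leave-one-out fits), for OSM against IL-6 from 0 to 1 (DESeq2, the 8 libraries alone) or 2 (any count), and for IL-1β against OSM from 1 to 2 (size factors, DESeq2, the 8 libraries alone, replicate block; 1 to 2 leave-one-out). A2M with OSM against unstimulated cells passed at 2.26 by DESeq2 (adjusted p 0.0175), 2.22 with any count (0.00471) and 2.22 in the 8 libraries alone (0.0268), with 1.88 to 2.90 over the leave-one-out fits, where it passed only without unstimulated replicate 4 (0.0451). A2M with OSM against IL-6 passed at 2.18, 2.14 and 2.14 under the same 3 settings (0.0347, 0.00852 and 0.0402). CEBPD in IL-1β against OSM passed at -1.36 with size factors (0.0493), -1.37 by DESeq2 (0.0264), -1.36 in the 8 libraries alone (0.0227) and -1.41 with the replicate block (0.0400), with -1.59 to -0.99 leave-one-out, where it passed without IL-1β replicate 3 or OSM replicate 1. The cause was not tested.

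The number of list genes called moved with any count to 14 (IL-17A), 2 (IL-6), 2 (IL-22) and 13 (TGF-β1), and with DESeq2 to 1 (IL-22). With the fold threshold it was 4 (OSM), 5 (IFNα), 2 (IFNγ) and 2 (TGF-β1), by construction. In the 8 libraries alone it was 6 (IFNγ), 3 (TGF-β1) and 6 (IL-13). Leave-one-out ranges were 5 to 15 (IFNγ, lowest without IFNγ replicate 3) and 5 to 14 (IL-13, lowest without unstimulated replicate 4).

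The replicate numbers were not taken as a pairing, since the labels do not tie them to a shared culture or day and not every same-numbered pair correlated (mean r 0.0237, lowest -0.187, against a mean of -0.0077 for other numbers). Even so, 22 of 44 libraries (50%) correlated best with their own number, where 25% would if the numbers carried nothing, which is a hint from the data that some deviation is shared. With the replicate block 223 genes in place of 145 were called with IL-17A and 12 in place of 0 with IL-22. Among the members, the block changed only the call on CEBPD in IL-1β against OSM, which passed with it (adjusted p 0.0400 by edgeR). SAA1 and SAA2 summed gave no fitted value, at 5 counts in all.

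Depth limits the low members most: at 3 counts to between 1.39 and 3.85 CPM, levels of LBP and ZC3H12A rest on at most 13 counts a library.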
